A study of Mus musculus with 20 samples.

Results

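The genes of the mouse Zfp800 and Zfp900 series were followed across the livers of 5 inbred strains. They were chosen by name alone: every non-control probe of the array whose gene symbol is Zfp, a number of those series and at most 1 letter. The rule found 108 probes of 63 genes, out of 55642 probes kept in all, and the array design names 289 other numbered Zfp genes. The livers came from 20 males, 4 per strain, and the RNA of each mouse was read in 1 colour (Cy3) on an Agilent array of its own. NZO/HiBomDife (NZO) is labelled as obese and susceptible to diabetes. C3HeB/FeJ (C3H) and DBA/2J (DBA) are labelled as susceptible, and 129P2/OlaHsd (129Ola) and C57BL/6 (B6) as resistant and lean. All mice, the resistant strains included, received the diet with 45% fat, and the extraction protocol gives their age as 6 weeks. No mouse carried an engineered allele according to the labels, no group on another diet was analysed here, and each strain is 1 genetic background, so that a strain and a class of diabetes risk cannot be told apart for a single gene.

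Zinc finger proteins of the C2H2 kind bind DNA through a row of fingers, each a short loop held by a zinc ion between 2 cysteines and 2 histidines. Many of the Zfp genes also encode a KRAB domain, which recruits the co-repressor Trim28 and, through it, the histone methyltransferase Setdb1 and heterochromatin proteins. These genes arose largely by tandem duplication, lie in clusters, change quickly between species and strains, and are best known for silencing retroviral elements. In mouse liver the Rsl genes of chromosome 13, members of the same family, are known to hold down the sex-limited expression of complement C4 and cytochrome P450 genes.

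The family is visible in the probes themselves. Of the 108 member probes, 17 (15.7%, from 16 genes) have a reading frame without a stop that matches a short pattern. The pattern stands for a piece of a finger or of the linker between fingers. Of all probes kept 542 (0.974%) matched, and 132 of these have a zinc finger or similar gene name. The following 5 probes of 60 bases are shown because strain differences described below rest on them or fail to appear on them. Capitals mark the codons of the recognised piece: the cysteine pair and the residues up to the following phenylalanine in Zfp930, Zfp944 and the first Zfp961 probe, the histidine pair in the second Zfp961 probe, and the linker in Zfp936.
Zfp930 probe A_51_P517120: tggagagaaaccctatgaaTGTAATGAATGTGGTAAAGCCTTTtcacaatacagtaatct
Zfp936 probe A_55_P1996082: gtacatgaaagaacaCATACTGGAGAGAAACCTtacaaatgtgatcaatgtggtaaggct
Zfp944 probe A_55_P2045855: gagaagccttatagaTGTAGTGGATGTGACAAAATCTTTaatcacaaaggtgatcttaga
Zfp961 probe A_55_P2015907: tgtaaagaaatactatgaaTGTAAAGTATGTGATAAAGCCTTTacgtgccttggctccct
Zfp961 probe A_55_P2015912: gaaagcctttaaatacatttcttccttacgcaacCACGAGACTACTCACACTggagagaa
In mm9, the build of the array files, these probes lie at chr8:71752264-71752323 (plus strand), chr7:50445732-50445791 (plus), chr17:22475963-22476022 (minus), chr8:74491960-74492019 (plus) and chr8:74492659-74492718 (plus). Probe sequences follow the reference genome, and the strains' own sequences were not used here. Exon and intron annotation of mm9 was not used either. Sequence variants under the probes were not checked in any strain. Whether such variants had a part in the strain differences below, or in probes of a gene that disagree, was not tested.

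The largest strain difference of the family lay in a set of 3 neighbouring genes on chromosome 13, Zfp953, Zfp874a and Zfp874b. RefSeq lists the names of the last 2 as candidates of the Rsl series. Their promoters are shown because the genes lie within 0.134 Mb of each other and did not change together. Each run is the 250 bases before the RefSeq start in GRCm38.p6, on the minus strand, at chr13:67360573-67360822, chr13:67451625-67451874 and chr13:67484254-67484503. Capitals mark the 2 unbroken runs of at least 9 bases that all 3 share, TTGTGGGAAATGTAGTC (17 bases) and GTGACGTCA (9 bases).
Zfp953: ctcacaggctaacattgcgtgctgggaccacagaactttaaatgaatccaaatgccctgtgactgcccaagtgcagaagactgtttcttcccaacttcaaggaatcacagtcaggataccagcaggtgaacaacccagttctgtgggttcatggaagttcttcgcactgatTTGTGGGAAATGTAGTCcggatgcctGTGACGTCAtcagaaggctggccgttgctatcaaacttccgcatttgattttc
Zfp874a: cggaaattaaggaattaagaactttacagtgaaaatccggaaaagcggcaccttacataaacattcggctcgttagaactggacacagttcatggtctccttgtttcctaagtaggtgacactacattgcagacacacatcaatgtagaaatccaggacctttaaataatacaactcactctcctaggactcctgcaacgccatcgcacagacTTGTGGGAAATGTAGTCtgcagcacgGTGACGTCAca
Zfp874b: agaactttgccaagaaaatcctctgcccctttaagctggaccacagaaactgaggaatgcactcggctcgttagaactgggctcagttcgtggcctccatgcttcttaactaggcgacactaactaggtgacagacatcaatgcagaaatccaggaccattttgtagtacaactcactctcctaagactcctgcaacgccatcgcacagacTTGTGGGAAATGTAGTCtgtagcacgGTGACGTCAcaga
In all 3 promoters the first base of GTGACGTCA lies 26 bases after the first base of TTGTGGGAAATGTAGTC. Searched on both strands, the longer run occurs in 14 of 32851 RefSeq promoters (0.0426%), of which 11 lie on chromosome 13 and 9 belong to Zfp genes, and in 3 of 70 promoters of the members (4.29%), the 3 shown. GTGACGTCA occurs in 375 promoters (1.14%) and in 4 of the members' 70 (5.71%), the fourth being that of Zfp868. Both runs stand on the gene's own strand in 5 promoters, all on chromosome 13 and all with the spacing of 26 bases: Zfp457, Zfp72 and the 3 shown. The runs were taken from these promoters, so their presence in them is no finding. The Zfp874a and Zfp874b promoters align with 192 identical bases (76.8% of the 250) and share an unbroken run of 45. Zfp953 shares 54.8% with Zfp874a and 59.6% with Zfp874b. A match is a string of letters in the reference and not a measured binding site. RefSeq held a promoter for 57 of the 63 genes.

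Levels are given as log2 of the processed spot signal minus the 75th percentile of the same array, so that 0 is the brightness of that percentile. A probe counts as detected in a mouse when the scanner software flagged its spot as well above background, and as silent in a strain when 0 of the 4 arrays carry that flag. Hepatocyte markers (6 of 6 genes, among them Alb and Ttr) were detected on all 20 arrays, as the liver label requires. The arrays differed in sensitivity: 49.2 to 59.0% of all probes were well above background on B6, NZO and DBA arrays, 43.2 to 46.8% on C3H arrays and 40.0 to 43.3% on 129Ola arrays. C3H and 129Ola were each scanned on a day of their own and read with a later version of the software, which cannot be told apart from the strain. Silence in those strains is therefore given beside 2 counts that do not compare them with the other 3.

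Most members were transcribed in liver at a measurable level. Of the 108 probes, 53 (49.1%, 39 genes) were well above background on all 20 arrays, against 35.8% of all probes, and 12 (11.1%) were detected on none, against 29.5%. For 6 genes no probe was detected in any mouse: Zfp804a, Zfp808, Zfp811, Zfp819, Zfp831 and Zfp853. Promoters of the always-detected genes held a median of 8 CpG dinucleotides (2 to 38, 36 genes) and those of the undetected genes 17 (4 to 35, 5 genes), with a median of 6 over all 27025 genes. The undetected genes had the higher median, on few promoters.

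Silence in 1 strain with detection in another was found for 15 probes of 14 genes (13.9% of members), against 8.08% of all probes. Only probes detected in all 4 mice of some strain can be counted, and a smaller share of members than of all probes was undetected. Among probes that met this condition the counts were 15 of 80 members and 4494 of 28417 in all. No excess in the family is therefore read from the shares in this paragraph. Silence followed the dimmer arrays. Of the 15 probes, 13 were silent in 129Ola, 11 in C3H, 2 in DBA, 2 in NZO and 0 in B6, and none was silent only in B6, NZO or DBA. Over all probes the order was alike, with 6.91% silent in 129Ola, 3.55% in C3H, 0.811% in DBA, 0.721% in NZO and 0.309% in B6. Within B6, NZO and DBA the count was 3 member probes of 2 genes, Zfp827 in DBA and Zfp944 in NZO or DBA (2.78% of members, 1.32% of all probes). Within C3H and 129Ola it was 0 members, against 1.62% of all probes. These counts carry no test, and exactly 1 strain was silent for 5 member probes (4.63%), against 4.81% of all probes.

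A floor common to all arrays, a log2 level of -2.12 chosen after the data were examined, gave another picture. It put 9 member probes below the floor in all mice of 1 strain and above it in all mice of another. Only Zfp874a and Zfp930 were among the 15 as well, both above the floor in B6 alone. Zfp882 and Zfp963 were below it in B6 and above it in the other 4 strains, and Zfp879 was below it in B6 and above it in NZO, C3H and 129Ola. The remaining probes belonged to Zfp865, Zfp867, Zfp933 and Zfp938. Another probe of the same gene was detected on all arrays of the silent strains for 8 of the 15 probes, and 4 of the 15 belong to genes with a single probe. A silent probe was thus often not a silent gene.

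**Figure D1:**
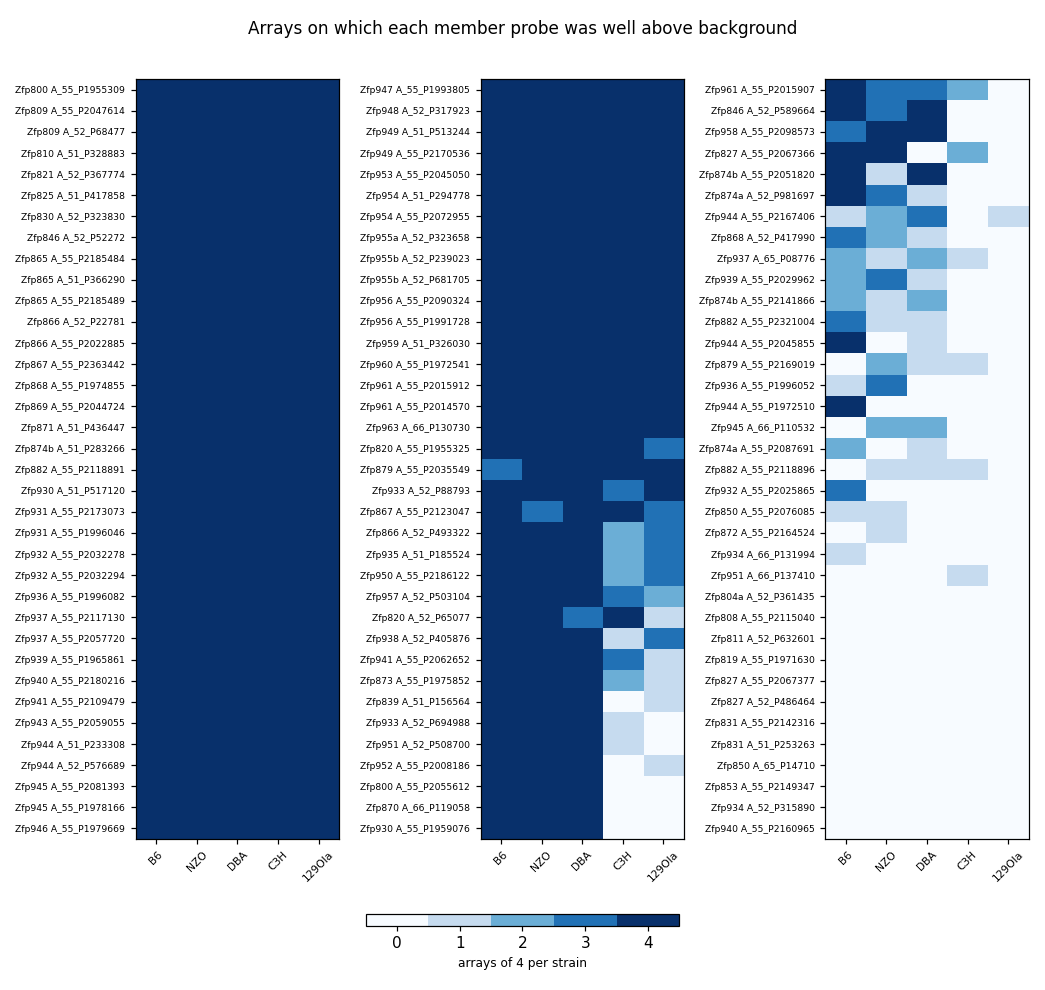
Number of arrays, 0 to 4 per strain, on which each of the 108 member probes was well above background; rows are probes, columns are strains, darker is more arrays. The 53 probes at the start are dark in every strain, and the partly detected probes fade mostly in the C3H and 129Ola columns.

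Zfp874a was the member with the largest strain difference. Its probe (A_52_P981697, mm9 chr13:67541780-67541839, minus strand) read 1.53, 1.53, 1.35 and 1.14 in the 4 B6 mice. The NZO mice read -3.26, -5.74, -3.40 and -3.14, and the DBA mice -5.66, -3.42, -4.85 and -5.18. C3H mice lay between -5.07 and -3.90 and 129Ola mice between -4.85 and -4.57. Every B6 mouse was far above every mouse of the other strains, in which 3 of 4 NZO arrays, 1 of 4 DBA arrays and no C3H or 129Ola array detected the probe. The NZO minus B6 difference was -5.27 (SE 0.50, adjusted p 5.19e-07) and the DBA minus B6 difference -6.17 (SE 0.50, adjusted p 6.44e-08). These differences are set against signals at or near background. The probe entered the test through B6 alone, where it was highest, so that its p-values are not independent of that selection. With the dim arrays raised to their detection limit, B6 was at least 28.3-fold above NZO and at least 35.1-fold above DBA. The second Zfp874a probe was dim everywhere: it was detected in 2 of 4 B6 mice and 1 DBA mouse, read -4.49 to -3.37 in B6, and was not tested.

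The neighbours of Zfp874a did not share its pattern. Zfp953 averaged -0.98 ± 0.20 in B6, -1.32 ± 0.16 in NZO, -1.36 ± 0.20 in DBA, -1.14 ± 0.11 in C3H and -0.38 ± 0.16 in 129Ola (SD, n = 4), and C3H was lower than 129Ola by a log2 difference of -0.76 (SE 0.13, adjusted p 0.00021). The detected Zfp874b probe averaged -0.94 in B6, -1.17 in NZO, -0.73 in DBA, -0.74 in C3H and -0.07 in 129Ola, and differed between C3H and 129Ola by -0.67 (adjusted p 0.0192; 0.068 scaled on the probes detected everywhere and 0.128 with slide as a random block). For both genes 129Ola was the highest strain, and neither passed the test between NZO and B6 or between DBA and B6. A dimmer Zfp874b probe, silent in C3H and 129Ola, differed between NZO and DBA by -0.94 (adjusted p 0.0393), a call lost without NZO 3, NZO 7, NZO 11, DBA 5, DBA 9 or DBA 15 (adjusted p 0.0574 to 0.13; mice are named by strain and animal number) and under 5 other processing settings (0.055 to 0.162). Here and below, such counts of settings leave out animal number as a block, which is described with the processing. Among the 3 promoters shown, those of Zfp874a and Zfp874b resemble each other most, and the levels of the pair ran apart in B6.

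Zfp944, on chromosome 17, was silent outside B6 on 1 of its 5 probes. That probe (A_55_P1972510, chr17:22475396-22475455, minus strand) read -2.40, -2.45, -2.46 and -2.40 in B6. NZO mice read -6.10 to -4.73, DBA mice -6.01 to -5.29, C3H mice -3.50 to -3.02 and 129Ola mice -5.06 to -4.71, none of them well above background. With the dim strain set at its detection limit, B6 was at least 2.71-fold above NZO and at least 2.73-fold above DBA. The fitted differences from B6 were -2.85 in NZO (adjusted p 8.26e-08) and -3.28 in DBA (adjusted p 1.21e-08), and they use signals below background. This probe entered the test through B6 alone, where it was highest, so that its p-values are not independent of that selection. Another Zfp944 probe, A_51_P233308, was detected in all mice and was also highest in B6, with strain means of -1.07, -1.62, -1.69, -1.63 and -1.56 in the order B6, NZO, DBA, C3H, 129Ola. Its DBA minus B6 difference was -0.63 (adjusted p 0.00906), and its NZO minus B6 difference of -0.56 (adjusted p 0.0183) was lost without B6 10, NZO 3, NZO 7 or NZO 11 (adjusted p 0.0508 to 0.062). A_52_P576689 was detected in all mice as well and read 0.42, 0.39, 0.35, 0.76 and 0.55 in the same order, with no call in any pair. The finger-coding probe of Zfp944 shown above was detected in all B6 mice, in 1 DBA mouse and in no other, yet passed no test (5-strain adjusted p 0.397). The probes of this gene thus ranged from silence outside B6 to no call against B6.

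Zfp930, on chromosome 8, was also highest in B6. Its probe A_55_P1959076 (chr8:71752820-71752879, plus strand) read -1.07 to -0.88 in B6, -3.23, -3.23, -3.10 and -3.33 in NZO, and -3.16, -2.72, -3.12 and -3.38 in DBA. No C3H mouse (-3.74 to -3.06) or 129Ola mouse (-4.04 to -2.81) had it above background. B6 exceeded every other mouse, with a difference of -2.23 (SE 0.23, adjusted p 1.6e-06) in NZO and -2.11 (SE 0.23, adjusted p 3.09e-06) in DBA. The finger-coding probe of Zfp930 was detected in all 20 mice and was highest in B6 as well, with a smaller span, at 2.19 ± 0.10 in B6, 1.48 ± 0.11 in NZO, 1.80 ± 0.30 in DBA, 0.86 ± 0.13 in C3H and 0.94 ± 0.36 in 129Ola (SD, n = 4). On it NZO was lower than B6 (-0.70, SE 0.16, adjusted p 0.00444), and DBA did not pass (-0.38, adjusted p 0.132).

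Zfp933, on chromosome 4, showed the same direction on 1 of its 2 probes. A_52_P88793 read -0.29, -0.80, 0.06 and -0.79 in B6, -1.90, -2.21, -1.98 and -2.03 in NZO, and -2.51, -1.98, -2.21 and -2.22 in DBA. C3H mice read -2.83 to -2.39 and 129Ola mice -2.32 to -1.43, so that B6 again did not overlap any strain. NZO was lower than B6 by -1.57 (SE 0.20, adjusted p 1.96e-05) and DBA by -1.78 (SE 0.20, adjusted p 4.57e-06). The other probe, A_52_P694988, gave no call among B6, NZO and DBA (adjusted p 0.417) and had B6 at -2.80, below NZO and DBA at -2.49 each.

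Other members were lowest in B6. Zfp963, in the chromosome 8 cluster that also holds Zfp930 (chr8:72265659-72265718, minus strand), had the largest span of any member detected on all 20 arrays, a log2 range of 3.21 between strain means. It read -3.81, -2.98, -3.63 and -3.54 in B6, -1.21, -1.75, -1.35 and -1.58 in NZO, and -1.67, -1.17, -1.12 and -1.20 in DBA. C3H mice read -1.56, -1.37, -1.46 and -1.14, and 129Ola mice -0.51, -0.03, -0.18 and -0.40. The strains fell into 3 levels, B6 at the bottom, 129Ola at the top and the other 3 overlapping between them. NZO was higher than B6 by 2.02 (SE 0.18, adjusted p 1.93e-07), DBA by 2.20 (SE 0.18, adjusted p 5.74e-08), and C3H was lower than 129Ola by -1.10 (adjusted p 0.000163). These calls held under all alternatives that were run.

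Zfp961, in a pair with Zfp882 on chromosome 8, was low in B6 on the probe over its histidine pair. B6 mice read -1.94, -1.81, -1.84 and -2.09 there, and the 16 mice of the other strains lay between -1.03 and -0.26. The difference was 1.11 in NZO (SE 0.12, adjusted p 3.42e-06) and 1.13 in DBA (SE 0.12, adjusted p 2.51e-06). A second probe of the gene, A_55_P2014570, showed no such gap, at 1.81 in B6, 1.63 in NZO, 1.56 in DBA, 1.75 in C3H and 2.01 in 129Ola, and the probe over the cysteine pair gave no call (5-strain adjusted p 0.627). Of the 3 probes of Zfp961, only the one over the histidine pair set B6 apart.

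Zfp882 itself averaged -2.33 ± 0.18 in B6, -1.32 ± 0.71 in NZO, -1.38 ± 0.17 in DBA, -1.04 ± 0.22 in C3H and -0.65 ± 0.14 in 129Ola (SD, n = 4), with differences from B6 of 1.01 in NZO (adjusted p 0.00616) and 0.95 in DBA (adjusted p 0.01). With scan day as a block these differences were 1.01 and 0.82 and no longer passed (adjusted p 0.0517 and 0.221), nor did they after normexp background correction (0.33 and 0.29, adjusted p 0.057 and 0.114). Zfp879, on chromosome 11, averaged -3.28 ± 0.51 in B6 against -1.68 ± 0.21 in NZO and -2.22 ± 0.13 in DBA, differences of 1.60 (SE 0.23, adjusted p 5.05e-05) and 1.06 (SE 0.23, adjusted p 0.00282; lost after normexp background correction, 0.0707), with 3 of 4 B6 arrays above background. On these probes, A_55_P2118891 of Zfp882 and A_55_P2035549 of Zfp879, all B6 mice were below all mice of the other strains. The other probes of both genes were too dim to test. Zfp882 probe A_55_P2321004 had its highest mean in B6 (-3.57) and was detected in 3 B6 mice, 1 NZO mouse and 1 DBA mouse. The means of A_55_P2118896 of Zfp882 and A_55_P2169019 of Zfp879 were lowest in B6 (-4.44 and -4.53).

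**Figure D2:**
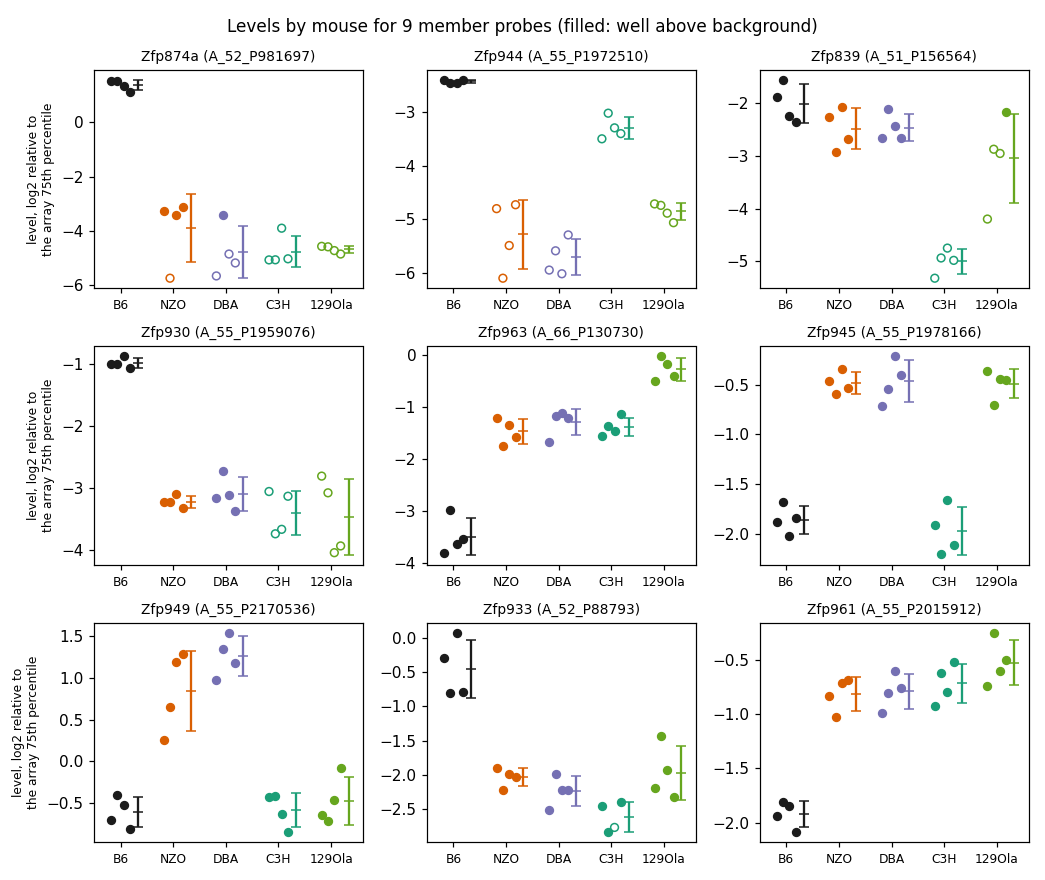
Level of 9 member probes in each mouse by strain, as log2 signal relative to the 75th percentile of the array; each panel has its own scale. Points are mice, filled where well above background, and bars are the strain mean ± SD of 4 mice. B6 stands above the other strains for Zfp874a, Zfp944, Zfp930 and Zfp933 and below them for Zfp963 and Zfp961.

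A second kind of pattern split the strains into groups that cross the labels of diabetes risk. Zfp945, at the far end of the chromosome 17 cluster, was low in B6 and C3H and high in the other 3. Its probe A_55_P1978166 (chr17:22986053-22986112, minus strand) read -1.88, -1.68, -2.03 and -1.84 in B6 and -1.91, -2.21, -1.66 and -2.11 in C3H. It read -0.46, -0.60, -0.34 and -0.53 in NZO, -0.71, -0.54, -0.21 and -0.40 in DBA, and -0.36, -0.70, -0.44 and -0.45 in 129Ola. The low and high strains did not overlap. Differences were 1.38 for NZO minus B6 (SE 0.13, adjusted p 4.16e-07), 1.39 for DBA minus B6 (adjusted p 3.4e-07) and -1.49 for C3H minus 129Ola (adjusted p 1.37e-07). A second probe of Zfp945 gave 1.41, 1.60 and -1.90 for the same differences (adjusted p 2.7e-05, 6.3e-06 and 7.9e-07), the same direction on both probes.

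Zfp949, on chromosome 9 with no member nearby, was high in NZO and DBA and low in the other 3. A_55_P2170536 read 0.26, 0.65, 1.20 and 1.28 in NZO and 0.97, 1.35, 1.54 and 1.19 in DBA. B6 mice read -0.70, -0.40, -0.53 and -0.81, C3H mice -0.85 to -0.42 and 129Ola mice -0.72 to -0.07. The difference from B6 was 1.46 in NZO (SE 0.21, adjusted p 5.07e-05) and 1.87 in DBA (SE 0.21, adjusted p 2.73e-06). Its second probe gave 1.34 and 1.27 (adjusted p 5.06e-06 and 8.83e-06), again with no mouse of NZO or DBA as low as any of the other strains.

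Zfp932, which together with a neighbouring gene is known to repress retroviral elements in embryonic stem cells, was lower in NZO and 129Ola on 1 of its probes. A_55_P2032294 averaged 1.28 ± 0.14 in B6, 0.58 ± 0.21 in NZO, 1.15 ± 0.13 in DBA, 1.35 ± 0.08 in C3H and 0.73 ± 0.20 in 129Ola (SD, n = 4). NZO was lower than B6 by -0.70 (SE 0.12, adjusted p 0.0003) and lower than DBA by -0.57 (adjusted p 0.00191; -0.51 and 0.0653 with scan day as a block), and C3H was higher than 129Ola by 0.63 (adjusted p 0.000633). A second probe of the gene gave no call (5-strain adjusted p 0.098). Zfp809, which recognises the primer binding site of mouse retroviruses, was detected in every mouse on both probes, and neither passed the 5-strain test (adjusted p 0.265 and 0.0579).

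Zfp867, on 1 of its 2 probes, and Zfp839 differed mainly through C3H. Zfp867 probe A_55_P2123047 averaged -2.11 in B6, -3.11 in NZO, -2.37 in DBA, -0.87 in C3H and -1.79 in 129Ola. C3H was higher than 129Ola by 0.93 (SE 0.26, adjusted p 0.0119) and NZO lower than B6 by -0.99 (adjusted p 0.0129). Both calls were lost in the authors' series value table (0.46, adjusted p 0.216, and -0.59, adjusted p 0.162). The first was also lost with slide as a random block (adjusted p 0.128) and the second after normexp background correction (adjusted p 0.0961). The brighter Zfp867 probe, A_55_P2363442, was detected in all mice and did not pass the 5-strain test (adjusted p 0.431). Nor did it pass between C3H and 129Ola (0.413) or between NZO and B6 (0.384). Zfp839 had a single probe, which was detected in all B6, NZO and DBA mice (-2.93 to -1.55), in no C3H mouse (-5.32, -4.94, -4.75, -4.98) and in 1 129Ola mouse (-4.20, -2.87, -2.95, -2.17). C3H was lower than 129Ola by -1.95 (SE 0.32, adjusted p 0.000184), a fitted difference between a strain with no detected array and one with 1. The Zfp839 levels of all C3H mice were below those of the other 16.

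Zfp827 was silent in DBA and 129Ola. Its probe A_55_P2067366 was detected in all B6 mice (-3.70 to -2.69) and all NZO mice (-3.53 to -2.77) and in no DBA mouse (-4.80 to -4.52). In C3H it was detected in 2 of 4 mice (-3.23 to -2.67), and in 129Ola in none (-4.83 to -3.91). With DBA set at its detection limit, B6 was at least 1.74-fold and NZO at least 1.60-fold above DBA. The fitted differences were -1.58 for DBA minus B6 (adjusted p 6.85e-05) and 1.45 for NZO minus DBA (adjusted p 0.000153). The second call was lost after normexp background correction (adjusted p 0.0537). The gene's other 2 probes were detected on no array.

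Counted over the whole family, strain differences were common, as they were on the array at large. Of the 108 probes, 80 passed the filter on dim probes (well above background in all 4 mice of some strain) and were tested. Among the 5 strains 55 of them (68.8%, 40 genes) passed the test, against 69.3% of all probes tested. Among B6, NZO and DBA, read with 1 version of the software, 24 passed (19 genes), against 26.6%. The members are therefore close to the background of the array in both counts, and nothing particular to the family is read from them.

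Between NZO and B6, 22 member probes passed (27.5%, against 17.7% of all probes), 9 higher in NZO (9.05% of all) and 13 lower (8.66% of all). Scaling the arrays on the 19935 probes detected on all of them gave 9 higher and 17 lower, with 2038 higher and 3340 lower over all probes, where the first scaling had 2571 and 2461. With 1 array left out the NZO count ran from 18 to 24. Between DBA and B6, 19 passed (23.8%, against 14.8%), 10 higher in DBA (6.89% of all) and 9 lower (7.95% of all). Between NZO and DBA, 6 passed (7.5%, against 17%), 2 higher in NZO (9.15% of all) and 4 lower (7.84% of all): Zfp827 and Zfp866 higher, and Zfp874b, Zfp932, Zfp936 and Zfp960 lower. The other scaling gave 1 higher and 6 lower for this pair. All 22, 19 and 6 calls kept their sign within each of the 2 scan days that hold all 3 strains. Each of these days holds 1 DBA mouse, and NZO and DBA met as 1 mouse against 1 on the later day. DBA 8 and DBA 15 were scanned on another day that holds no other strain. The signs come from the same mice as the calls and are no independent check. NZO and DBA were compared with the same 4 B6 mice. The part of sequence variants under the probes in the calls against B6 was not tested. The median difference over the members was -0.06, -0.05 and -0.02 for the 3 comparisons, and 0.03, 0.01 and 0.03 over all probes.

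The same counts restricted to the 53 member probes detected on all 20 arrays kept the order: 16 passed between NZO and B6 (30.2%, against 18.5% of the 19935 such probes), 13 between DBA and B6 (24.5%, against 15.3%) and 3 between NZO and DBA (5.66%, against 18.0%). The range of the strain means on these probes had a median of 0.68 in the members and 0.68 over all such probes. It exceeded 1 in 16 members (30.2%), against 25.7%.

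Between C3H and 129Ola, 31 member probes passed (38.8%, 26 genes, against 35.5% of all probes), 10 higher in C3H (14.4% of all) and 21 lower (21.1% of all). Scaled on the probes detected on all arrays, which moved the median of all probes by a log2 difference of 0.16, the members split into 16 higher and 14 lower and all probes into 5936 higher and 3338 lower, so that no balance of directions is read for this pair. With slide as a random block 13 passed, 3 higher and 10 lower. For 2 of the 31, Zfp944 A_55_P1972510 and Zfp874b A_55_P2051820, neither strain had a detected array, and no fold is given. Zfp955b (A_52_P681705) was among the clearest, at 1.80 ± 0.06 in C3H and 2.63 ± 0.08 in 129Ola (SD, n = 4, difference -0.83, SE 0.09, adjusted p 1.91e-06), with B6 at 1.19, NZO at 1.64 and DBA at 1.71. Zfp868 (A_55_P1974855) stood at 0.16 ± 0.14 in C3H and 1.19 ± 0.14 in 129Ola (difference -1.03, SE 0.15, adjusted p 5.37e-05), with B6, NZO and DBA at 0.09, 0.28 and 0.10. For Zfp868 the 129Ola mice (1.05 to 1.38) did not overlap any other strain.

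**Figure D3:**
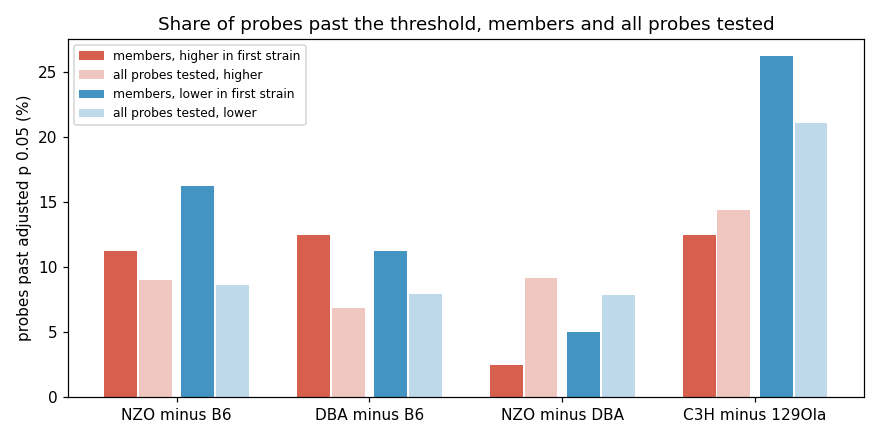
Percent of probes past an adjusted p of 0.05 in each pair of strains, split by direction (higher or lower in the first strain), for the 80 member probes tested (dark bars) and all 28417 probes tested (pale bars). Members exceed all probes in both directions against B6 and fall below them in both directions between NZO and DBA.

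The members are clustered in the genome. Of the 63 genes, 33 (52.4%) lie within 1 Mb of another member, measured between probe positions in mm9. The share within 1 Mb of a member was 38.8% for the 289 other Zfp genes and 6.48% for 23782 other named genes, and 50 members (79.4%) have some Zfp gene that near. Joining neighbours gave 9 clusters, 3 of them with 5 or more genes. Clustered and single members were counted side by side, with no test of the difference. In clusters 30 of 41 tested probes passed among the 5 strains, 15 passed among B6, NZO and DBA, and 8 were silent in some strain. Among the single genes 25 of 39 passed, 9 passed among B6, NZO and DBA, and 7 were silent. The clusters hold 55 probes and the single genes 53. Of all probes tested, 69.3% and 26.6% passed these tests, and 8.08% of all probes kept were silent in some strain. Each group held 3 genes detected in no mouse.

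The largest cluster, on chromosome 17 from 21725548 to 22986112, holds 7 genes in the order Zfp948, Zfp820, Zfp943, Zfp947, Zfp944, Zfp946 and Zfp945. Neighbours there went in different directions. Zfp943 stood at 2.48 ± 0.17 in B6, 1.90 ± 0.09 in NZO, 1.89 ± 0.16 in DBA, 2.62 ± 0.09 in C3H and 2.65 ± 0.16 in 129Ola (SD, n = 4), lower than B6 in NZO (-0.58, SE 0.11, adjusted p 0.00068) and DBA (-0.60, adjusted p 0.000537). Zfp947 followed it at a smaller size, with -0.34 in NZO (adjusted p 0.035, and 0.0581 to 0.0969 without B6 9, B6 10, B6 11, NZO 3, NZO 7 or NZO 11 and 0.057 to 0.0858 under 3 other settings) and -0.50 in DBA (adjusted p 0.00273). Zfp945 was higher than B6 in both strains. Zfp948 and both Zfp820 probes passed no test, whereas Zfp946 passed the 5-strain test (adjusted p 0.00713). Of the 4 pairs of strains compared, Zfp946 passed only between C3H and 129Ola (-0.41, adjusted p 0.031), a call lost without C3H 1, C3H 2, C3H 5, 129Ola 4 or 129Ola 5 (0.0516 to 0.0863) and under 6 other settings (0.0695 to 0.214). Over the cluster 8 of 12 tested probes passed among the 5 strains (69.3% of all probes), and between NZO and B6 2 were higher and 4 lower (9.05 and 8.66% of all probes).

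The second cluster of chromosome 17, from 32910629 to 33441482, holds Zfp871, Zfp811, Zfp870, Zfp952, Zfp955a and Zfp955b. All 6 tested probes passed among the 5 strains (69.3% of all probes), and the 5 that passed between C3H and 129Ola were all lower in C3H (21.1% of all probes). With slide as a random block 4 of these 5 calls were lost, those of Zfp871, Zfp952, Zfp955a and Zfp955b on A_52_P239023 (adjusted p 0.0611 to 0.117). Zfp871 averaged -0.06 in B6, -0.17 in NZO, 0.13 in DBA, 0.45 ± 0.25 in C3H and 1.06 ± 0.27 in 129Ola (SD, n = 4; C3H minus 129Ola -0.62, SE 0.15, adjusted p 0.0047). Zfp955a was lower in C3H by -0.63 (adjusted p 0.00454). Zfp952 was lower in C3H by -0.65 (adjusted p 0.0064, and 0.0512 scaled on the probes detected on all arrays). It was not well above background in any C3H mouse and in only 1 129Ola mouse, so no fold is given. Zfp811 was detected nowhere, and Zfp870 was detected in all B6, NZO and DBA mice and in no C3H or 129Ola mouse.

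The chromosome 8 cluster, from 71752264 to 72290646, set opposite patterns side by side. It runs Zfp930, Zfp868, Zfp869, Zfp963 and Zfp866. Zfp930 was highest in B6 and Zfp963 lowest in B6, 513 kb further on, while Zfp869 between them was among the most even members, at 0.92, 0.75, 0.74, 0.82 and 0.79 in the order B6, NZO, DBA, C3H, 129Ola (range 0.18, 5-strain adjusted p 0.679). Probe A_52_P22781 of Zfp866 was as even (range 0.18, adjusted p 0.311), whereas A_52_P493322, above background in 2 C3H and 3 129Ola mice, differed between these strains by -0.86 (adjusted p 0.000264). In the authors' series value table that difference was -0.02 (adjusted p 0.889). The NZO minus DBA difference of 0.45 (adjusted p 0.0407) was lost without C3H 2, B6 9, NZO 7, NZO 9, NZO 11, DBA 5, DBA 9 or DBA 8 (adjusted p 0.0505 to 0.112) and under 6 other settings (0.0559 to 0.468).

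**Figure D4:**
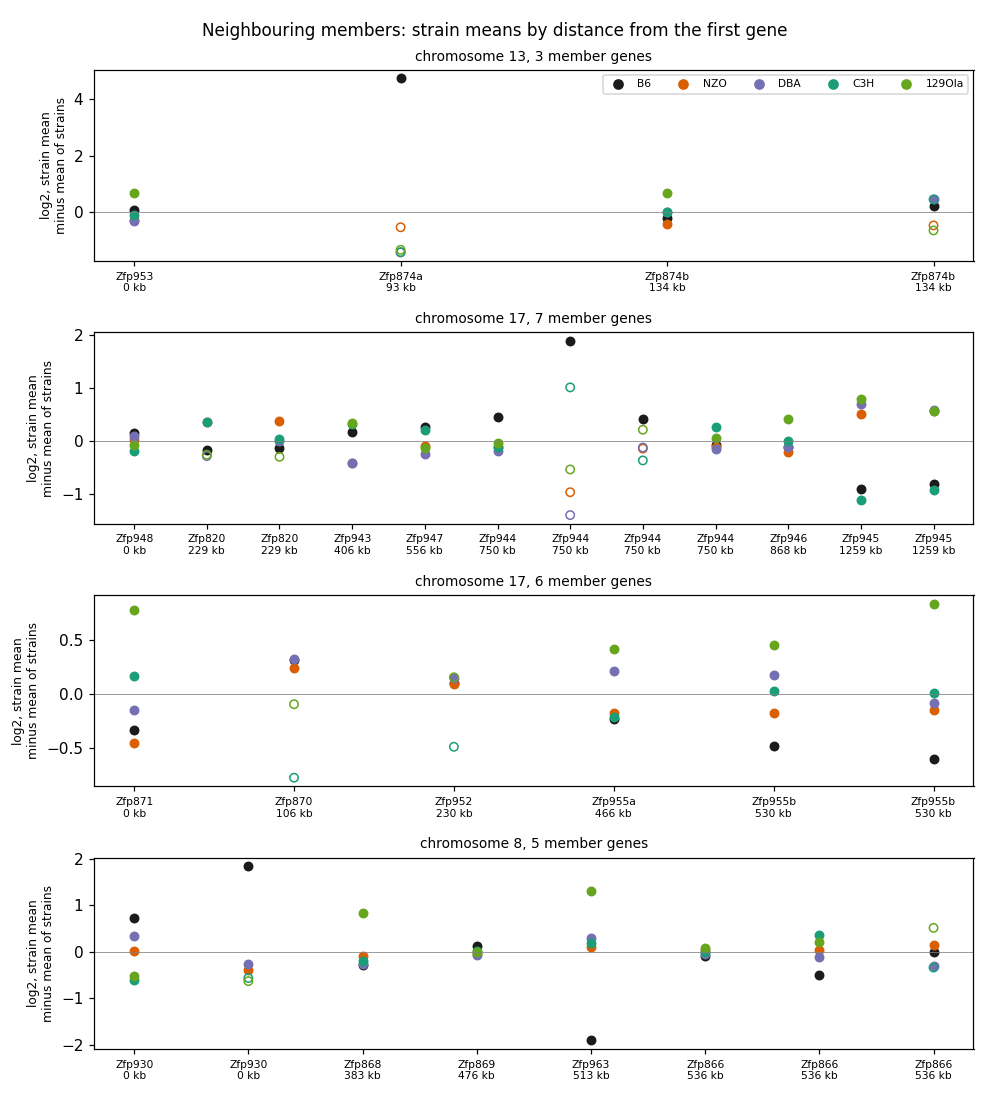
Strain means of the tested member probes in the 4 clusters that have at least 3 genes and 4 tested probes, each minus the mean of the 5 strains (log2); probes are spaced evenly and labelled with the distance in kb from the first gene. Filled points are strains with all 4 arrays well above background. Zfp874a and 1 probe of Zfp930 carry a high B6 point, 1 probe of Zfp944 is high in B6 and less so in C3H, Zfp963 is low in B6 and high in 129Ola, and Zfp945 is low in both B6 and C3H.

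The most even members were Zfp959 (range of strain means 0.12, from -0.69 to -0.57), Zfp869, Zfp866 on A_52_P22781, Zfp821 (0.20) and Zfp800 on A_55_P1955309 (0.27). None of them passed the 5-strain test (adjusted p 0.311 to 0.927). Zfp936, on chromosome 7, was at the other end among the always-detected genes. Its finger-coding probe averaged 0.60 ± 0.22 in B6, 0.04 ± 0.36 in NZO, 0.68 ± 0.24 in DBA, -0.67 ± 0.19 in C3H and -1.05 ± 0.24 in 129Ola (SD, n = 4). Its low strains were those with dimmer arrays. NZO was lower than DBA (-0.63, SE 0.18, adjusted p 0.019), a call lost without NZO 3, DBA 8 or DBA 15 (adjusted p 0.0578 to 0.0761), with scan day as a block (-0.43, adjusted p 0.296) and in the authors' series value table (0.0518). NZO was also lower than B6 (-0.56, adjusted p 0.0367), a call lost without NZO 3, NZO 7, B6 9, B6 10 or B6 11 (adjusted p 0.0602 to 0.136) and under 4 other settings, scan day among them (0.0733 to 0.075). Zfp940 was lower than B6 in NZO (-1.16, SE 0.22, adjusted p 0.00103), and its smaller DBA difference (-0.74, adjusted p 0.0294) was lost without B6 9, B6 10, B6 15, DBA 9 or DBA 8 (adjusted p 0.0542 to 0.102) and under 4 other settings (0.0597 to 0.246). Zfp960 was lower in NZO than in DBA (-0.70, SE 0.12, adjusted p 0.000385), with NZO at 0.30 ± 0.21, B6 at 0.73 ± 0.20, DBA at 1.00 ± 0.20, C3H at 0.50 ± 0.01 and 129Ola at 1.16 ± 0.12 (SD, n = 4).

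The remaining probes that were silent in a strain lay near the detection limit. Zfp951 (A_52_P508700) ran from -2.94 to -1.36 in B6, NZO and DBA and from -4.86 to -2.96 in C3H and 129Ola, with 1 C3H array and no 129Ola array above background (5-strain adjusted p 0.0019). Zfp800 (A_55_P2055612), Zfp846 (A_52_P589664) and Zfp958 were silent in both C3H and 129Ola and passed no 5-strain test (adjusted p 0.0731, 0.179 and 0.0507), and other probes of Zfp800 and Zfp846 were detected in every mouse. The cysteine-pair probe of Zfp961 and probe A_52_P694988 of Zfp933 were silent in 129Ola only. Of 33 genes with several probes, 6 had tested probes that differed in the 5-strain call: Zfp866, Zfp867, Zfp932, Zfp937, Zfp944 and Zfp961. In 11 more, among them Zfp939 and Zfp945, the called probes stood beside a probe too dim to test.

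The partners of these proteins were measured on the same arrays. A list of 35 genes for the KRAB co-repressor and its chromatin enzymes was tested in full, and 33 genes were detected in all mice. Trim28 averaged 2.90 ± 0.07 in B6, 3.10 ± 0.12 in NZO, 3.13 ± 0.14 in DBA, 2.71 ± 0.08 in C3H and 3.18 ± 0.09 in 129Ola (SD, n = 4). It was lower in C3H than in 129Ola (-0.47, SE 0.09, adjusted p 0.000582) and did not differ past the threshold among B6, NZO and DBA (adjusted p 0.0973). Of the list, 28 genes passed among the 5 strains and 8 among B6, NZO and DBA, where 69.3 and 26.6% of all tested probes passed. Between NZO and B6 2 were higher and 3 lower (9.05 and 8.66% of all probes), between DBA and B6 3 and 2 (6.89 and 7.95%), between NZO and DBA 1 and 4 (9.15 and 7.84%), and between C3H and 129Ola 3 and 6 (14.4 and 21.1%). The median difference over the list was -0.05, -0.003, -0.04 and -0.19 in these 4 comparisons. The largest ranges belonged to Ehmt1, a histone H3 methyltransferase (6.31 in B6, 6.55 in NZO, 8.32 in DBA, 5.29 in C3H, 6.04 in 129Ola), Uhrf1, Suv39h2, Chd3 and Dnmt3a. Each gene of the list is read on 1 probe. Ehmt1 had 2 tested probes, and only 1 passed the 5-strain test. Uhrf1 and Suv39h2 had 2 probes each, of which 1 was tested, and the Uhrf1 probe was detected in 0 of 4 129Ola mice.

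Complement C4 genes and Cyp2d9 were measured beside the chromosome 13 set. All mice were males, so sex-limited expression was not measured. Whether C4b lies under Rsl control was not tested, and no Rsl activity is read from these levels. C4a had no probe on the array. C4b read 8.99 in B6, 8.99 in NZO, 9.00 in DBA, 7.14 in C3H and 8.72 in 129Ola (adjusted p among B6, NZO and DBA 0.999), and was lower in C3H than in 129Ola (-1.58, SE 0.13, adjusted p 8.8e-08). Cyp2d9 read 7.60, 7.43, 7.95, 7.35 and 7.54 in the order B6, NZO, DBA, C3H, 129Ola. It passed the 5-strain test (adjusted p 0.0242), and of the 4 pairs it passed only between NZO and DBA (-0.53, SE 0.16, adjusted p 0.0304). Rsl1 itself read -1.50, -1.91, -1.89, -1.75 and -0.42 in that order, highest in 129Ola as Zfp953 and Zfp874b were, and differed between C3H and 129Ola by -1.33 (SE 0.17, adjusted p 1.2e-05).

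Other cell types moved with the strains as well. All 5 Kupffer cell markers were detected on all arrays, and 4 of the 5 were lower in NZO than in B6 and 4 lower in DBA than in B6 (8.66 and 7.95% of all probes), for example Clec4f at 5.33 in B6, 4.21 in NZO and 4.57 in DBA. Adipocyte markers were at or near background: Lep on 0 arrays, Adipoq and Plin1 on 1 each. Of the exocrine pancreas genes, Pnlip was detected on none, Cpa1 on 1 array and Cela1 on all 20. Cela1 was lower in NZO than in DBA (-1.09, adjusted p 0.0013). The skeletal muscle genes Acta1 and Myh4 were detected on 13 arrays each, with an SD of 3.23 and 3.46 among the NZO mice. Myh4 passed the 5-strain test (adjusted p 0.0349) and Acta1 did not (0.183). Whether the samples held tissue other than liver was not tested. In whole liver, fewer cells of a type and less RNA per cell cannot be told apart, and the part of Kupffer cells in the member differences was not tested.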

How the data were processed

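Liver RNA of 20 mice, 4 per strain, was measured on 1-colour arrays. Per the file headers, the intensity values the authors deposited were read with Agilent Feature Extraction, version 11.5.1.1 on the C3H and 129Ola arrays and 11.0.1.1 on the other 12, in build mm9, as background-subtracted and detrended spot signals with no normalization between arrays. The submitters' processing notes name version 9.1. Per the file headers, other columns hold flags for spots above background and for outliers, and the mean and background intensity of each spot. The authors' series value table, on a linear intensity scale with the same sorted values in every column and a median of 19.9 in each, served as an alternative. Its background correction and offset are unknown.

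Control spots and outlier spots were left out and spots of 1 probe averaged. Of 55681 probes 39 were dropped because an array had no spot left for them. Signals were taken as log2 minus the 75th percentile of each array. The tests used limma 3.58.1 in R 4.3.3, with a mean per strain over all 20 arrays (15 residual degrees of freedom, 2.17 prior), for the 28417 probes well above background in all 4 mice of some strain. P-values are two-sided and Benjamini-Hochberg adjusted over all probes tested, with a threshold of 0.05. The procedure was tested on simulated data first. A fold given as "at least" takes for the dim strain, array by array, the detection limit (the dimmest signal well above background) or the probe's own signal where that is higher. No test was made of such a fold, and adjusted p-values belong to the fitted differences. The number of arrays and the signal over background limit the precision.

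Members were taken by name: 2 probes match only in the later annotation, and 99 of the 108 probes matched the RefSeq gene table by accession, all with the same symbol. Probes described singly are those silent in 1 strain and detected in another, the 10 with the widest and the 5 with the narrowest range of strain means among those detected on all arrays, the members of their clusters, and genes whose probes disagree. Up to 5 co-repressor genes are named by their range. Others were chosen after their values were seen: Zfp809, Zfp867, Zfp879, Zfp940 and Zfp960. The members and the lists were chosen with earlier results of these data known. Animal numbers in the labels were taken to mean that every array is another mouse.

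Alternatives covered scaling, background correction, the filter on dim probes, the authors' table, 1 probe per gene, slide, scan day and animal number as blocks, fits on fewer strains, detection rules, cluster distance and leaving out each array. Restricting the counts to probes detected everywhere, the common floor, and the detection rules within B6, NZO and DBA and within C3H and 129Ola were added after the data were examined. Animal numbers repeat across strains, with correlations of the paired deviations from -0.33 to 0.36 over 5 pairs, so they were not taken as pairs.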

Additional observations from a re-analysis of the deposited data

Results flagged for a closer look

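In groups of 4 mice, 1 mouse stood apart from the other 3 by a Dixon gap test for 6 of 108 strain groups looked at, where chance gives about 1 in 20. NZO 7 read -1.39 for Zfp821, with the other NZO mice at -0.89 to -0.80. DBA 8 read -3.10 for Zfp933 on A_52_P694988 (others -2.37 to -2.23) and -2.93 for Zfp870 (others -3.31 to -3.29). 129Ola 5 read -0.0671 for Zfp800 on A_55_P1955309 (others -0.30 to -0.28). B6 15 read -3.59 for Zfp874b on A_55_P2051820 (others -3.37 to -3.33). DBA 5 read -1.67 for Zfp963 (others -1.20 to -1.12), still above every B6 mouse.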

How the results depend on the processing

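The counts of member probes past the threshold moved by at most 1.5 times under the scalings, the background correction, the filters, the fits on fewer strains and the scan day block, and with any single array left out (51 to 56 among the 5 strains, 22 to 27 among B6, NZO and DBA, 18 to 24 for NZO and B6, 18 to 22 for DBA and B6, 4 to 8 for NZO and DBA, 25 to 33 for C3H and 129Ola). In the authors' series value table, which held 50 of the 80 probes, the counts were 30 among the 5 strains, 15 among B6, NZO and DBA, 14 for NZO and B6, 3 for NZO and DBA and 19 for C3H and 129Ola. With slide as a random block 13 probes passed for C3H and 129Ola (correlation within slides 0.359). With the animal number as a replicate block, 9 passed among B6, NZO and DBA, 8 for NZO and B6 and 9 for DBA and B6. Of the single-probe calls among these strains 17 held with that block and 30 were lost. Most of these losses are not given with the probes above. They include the calls of Zfp943 (adjusted p 0.147 for NZO and 0.174 for DBA, each against B6) and of Zfp947 for NZO and B6 (0.572). For NZO and DBA 0 passed by limma with that block, with 6 members at an unadjusted p under 0.05 and 264 of all 28417 probes past the adjusted one. The samples share only a number, and the cause was not tested.

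The 15 probes silent in some strain became 8 with the positive-and-significant flag and 9 with the common floor, and 15 to 18 with 1 array left out. The 3 within B6, NZO and DBA became 5 when 1 detected array was allowed in the silent strain, 5 when 3 detected arrays sufficed, and 5 with the common floor. The 0 within C3H and 129Ola became 1 when 1 detected array was allowed, 2 with the positive-and-significant flag, and 0 to 1 with 1 array left out (1 without 129Ola 5). Signal over background on the C3H and 129Ola arrays limits all of these.

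Of the called differences of single probes, 1 reversed: Zfp874b on A_55_P2051820, silent in both strains, was -0.65 for C3H minus 129Ola in the authors' table, where the scanner values had it higher in C3H. Leaving out 1 array kept 1468 of 1560 such values past the threshold. Background correction by normexp with an offset of 50 made differences of dim probes smaller by construction (Zfp827, DBA minus B6, -0.17 against -1.58), and 12 of 78 calls were lost with it.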
